A study of Homo sapiens with 20 samples.

Results

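The interferon regulatory factors (IRFs) are transcription factors that share an N-terminal DNA-binding domain and bind GAAA-rich elements in interferon genes and interferon-stimulated genes. The 7 genes described here, IRF1, IRF2, IRF3, IRF5, IRF7, IRF8 and IRF9, were taken by symbol from a table of 20314 genes, each with 1 row. Of these, 6 had enough reads for a test and IRF7 did not. The table holds RNA-seq read counts from U2-OS, a human osteosarcoma cell line, in 4 groups of 5 libraries. Untreated cells were compared with cells taken 90 min (1.5 h) after 20 Gy of ionizing radiation, with cells taken 7 days after 20 Gy, and with non-irradiated cells carrying an shRNA knockdown (KD) of NFKBIA. NFKBIA encodes IκBα, the inhibitor that holds NF-κB in the cytoplasm. The study's methods name pTRIPz or pGIPZ shRNA vectors for IκBα, with selection of clones. Its figure legends tie the sequenced knockdown to a doxycycline-inducible shRNA. The methods also describe doxycycline-treated cells with a scrambled shRNA as controls, but none of the 20 libraries is labelled as one. For the untreated libraries no construct or doxycycline is labelled, so effects of the knockdown, the clone and the vector cannot be told apart here. The study describes the 5 libraries of a group as biological replicates, and p-values measure the spread between them.

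Roles within the family differ. IRF1 is an activator whose own transcription is induced by interferon-γ and by NF-κB, and IRF2 competes with it for the same elements. IRF3 and IRF7 lie latent until TBK1 or IKKε phosphorylates them downstream of nucleic acid sensors, and then switch on interferon genes. IRF5 acts downstream of Toll-like receptors. IRF8 is best known in myeloid and B cells. IRF9 works with STAT2 in ISGF3, the complex that drives interferon-stimulated genes.

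Between 22535659 and 40390961 reads were counted per library, and levels are given as CPM, read counts scaled to a common library size of 1000000. Untreated replicate 5 was the shallowest and stood apart. Its median correlation with the other untreated libraries was 0.978, against 0.989 to 0.993 for those 4 libraries. It was also the untreated library sequenced in lane 3, while untreated replicates 1 to 4 filled lane 2, so lane and group were largely confounded and values that rest on this library are given with and without it. Libraries at 7 days and KD libraries share no lane with any untreated one. NFKBIA stood at 28.6, 23.5, 27.4, 35.0 and 42.0 CPM in untreated replicates 1 to 5 and at 11.2 to 13.0 CPM in KD cells, a log2 fold change of -1.36 (SE 0.11, edgeR adjusted p = 4.87e-09), so the labelled knockdown was seen in all 5 KD libraries. The osteoblast markers SP7, IBSP and TWIST1 did not exceed 3 counts in any library, while the sum over the 10 osteoblast and osteosarcoma markers was 4005 to 4751 CPM in untreated cells, 3677 to 3986 at 1.5 h, 2756 to 3179 at 7 days and 2804 to 2970 in KD cells, each below all untreated libraries. Gene by gene, of the 7 tested, 0 were called higher and 1 lower at 1.5 h, 2 and 1 at 7 days, and 0 and 2 in KD cells. Of 6 tested epithelial and endothelial markers, 4 were called lower at 7 days, 3 in KD cells and 0 at 1.5 h. Of all genes tested, 14.4%, 7.53% and 1.57% were called lower in these comparisons, and 16.7%, 5.18% and 2.08% higher. The sum over all 7 epithelial and endothelial markers in the table ran from 373 to 671 CPM in untreated cells, a range that held all other libraries. For all these markers their part in the IRF differences was not tested.

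IRF1 was the family member that moved most in the first phase. Its level was 31.4, 29.9, 29.8, 31.4 and 32.8 CPM in untreated replicates 1 to 5. At 1.5 h post-IR it was 76.7, 71.2, 74.9, 73.3 and 80.8 CPM. Every irradiated library lay above every untreated one, and the nearest values of the groups were 71.2 and 32.8 CPM. IRF1 had returned to 32.8, 32.4, 36.1, 34.9 and 31.9 CPM at 7 days and stood at 30.0, 28.7, 29.5, 28.2 and 29.3 CPM in KD cells. Both of these groups overlapped untreated cells. In bulk RNA a change in the share of cells and a change in RNA per cell cannot be told apart.

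The rise of IRF1 at 1.5 h was 2.43-fold (log2 fold change 1.28, SE 0.047, edgeR adjusted p = 3.15e-14), and its log2 value was 1.18 with the lane as a term and 1.17 within lane 3, where untreated cells have 1 library and no test was made. Only 0.273% of the 14992 genes tested had a larger rise. IRF1 was the 1 of 6 tested IRF genes called higher, where a call needed an absolute log2 fold change above 0.5 and an adjusted p under 0.05. Of all genes tested, 2.08% were called higher and 1.57% lower in this comparison. Irradiated and untreated libraries were fully apart for 2 of the 6 IRF genes (IRF1 and IRF8) and for 12.3% of all genes. From 1.5 h to 7 days IRF1 fell by 1.16 on the log2 scale (SE 0.047, adjusted p = 1.58e-14). The difference between 7 days and untreated cells was 0.12 (adjusted p = 0.0360), below the fold threshold, and that between KD and untreated cells was -0.09 (95% interval -0.18 to 0.00, adjusted p = 0.130). Among all genes tested, the most similar profiles over the 20 libraries belonged to SIK1, a salt-inducible kinase (Pearson r = 0.987), C10orf10 (r = 0.981) and CD83, an immunoglobulin-family surface protein (r = 0.970). These correlations describe libraries that also share lanes and depth. C5orf56, which overlaps IRF1 on the opposite strand, differed by 0.18 at 1.5 h (adjusted p = 0.192).

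The promoter of IRF1 is shown because IRF1 was the member called at 1.5 h. The RefSeq window runs from 250 bases before the transcription start to 50 bases after it (GRCh38.p14, chr5:132490724-132491023, minus strand), and capitals mark, in order, a match to the GAS motif that STAT dimers bind (TTCNNNGAA) and a match to the κB consensus. The motifs were picked with these windows in view and searched on both strands.
IRF1: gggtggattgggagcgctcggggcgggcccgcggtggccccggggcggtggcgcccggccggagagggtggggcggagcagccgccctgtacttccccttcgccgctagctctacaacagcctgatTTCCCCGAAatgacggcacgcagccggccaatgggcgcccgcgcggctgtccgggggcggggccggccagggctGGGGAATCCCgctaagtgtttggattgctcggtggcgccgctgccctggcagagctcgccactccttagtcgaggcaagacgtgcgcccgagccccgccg
The GAS match spans bases -124 to -116 and the κB match bases -50 to -41 from the start. Of 34943 RefSeq promoter windows of this length, 7.66% held a GAS match, 5.9% a κB match and 3.57% a match to the ISRE motif (GAAA, any 2 bases, GAAA), and the IRF1 window held no ISRE match. A match is a string of letters and not a site shown to be bound.

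IRF2 was not called in any comparison with untreated cells in the fit without lane, and its untreated mean turned on 1 library. The untreated replicates gave 17.1, 15.3, 15.6, 14.2 and 29.4 CPM, so replicate 5 was far above the other 4. At 1.5 h the values were 13.2 to 15.2 CPM, at 7 days 12.6 to 14.6 CPM, and in KD cells 15.8 to 18.1 CPM. All 3 ranges overlapped that of the untreated group. The log2 difference was -0.36 at 1.5 h (SE 0.14, adjusted p = 0.0619) and -0.40 at 7 days (SE 0.14, adjusted p = 0.0142), the latter past the p threshold and short of the fold threshold. Without untreated replicate 4 the value at 7 days was -0.502 and was called. Without untreated replicate 5 these became -0.15 and -0.20, and the KD difference of -0.12 turned to 0.09. Fitting the lane as a term, which for untreated cells rests on the same library, gave -1.07 at 1.5 h, -1.09 at 7 days and -0.74 in KD cells, each called lower. IRF2 was also lower in all 5 libraries at 7 days than in all 5 KD libraries, with a log2 difference of -0.28 that missed the threshold (adjusted p = 0.0831). With the lane as a term this difference was -0.355 (edgeR adjusted p = 0.0153), past the p threshold and short of the fold threshold.

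**Figure D1:**
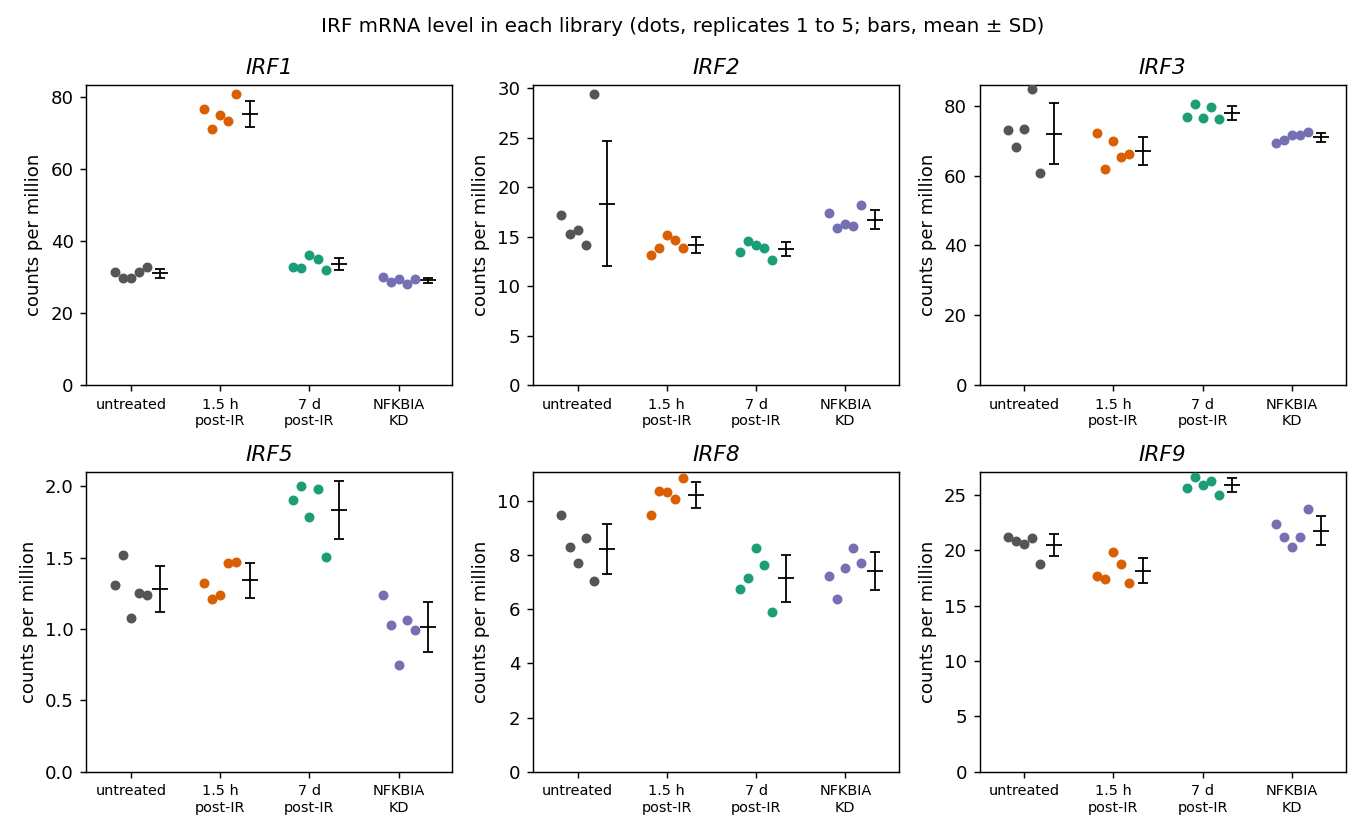
CPM of the 6 tested IRF genes in each of the 20 libraries, by group, with replicates 1 to 5 from left to right within a group and the mean ± SD (n = 5) as a bar beside them. IRF1 stood at 71.2 to 80.8 CPM at 1.5 h and at 28.2 to 36.1 CPM in the other groups, IRF9 was highest at 7 days, and untreated replicate 5 carried 29.4 CPM of IRF2.

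The ratio of the activator to its antagonist was taken within each library. IRF1 CPM was 1.81 ± 0.41 times IRF2 CPM in untreated cells, 5.35 ± 0.44 times at 1.5 h, 2.45 ± 0.13 times at 7 days and 1.75 ± 0.08 times in KD cells (mean ± SD, n = 5). On the log2 scale the ratio was higher by 1.60 at 1.5 h and by 0.47 at 7 days, with no overlap between groups (two-sided exact permutation p = 0.00794 each, the smallest that 5 against 5 allows, and 0.0159 after adjustment over 6 ratio tests). The KD difference was -0.01 (exact permutation p = 0.976). Without untreated replicate 5 the 3 differences were 1.43, 0.31 and -0.18, and the last then passed the test (adjusted exact permutation p = 0.0159).

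IRF3, the constitutive member that nucleic acid sensing activates by phosphorylation, had the highest level of the family per length of transcript. Its range was 60.6 to 84.7 CPM in untreated cells, 61.8 to 72.1 CPM at 1.5 h, 76.3 to 80.5 CPM at 7 days and 69.2 to 72.3 CPM in KD cells. None of these ranges separated from that of untreated cells, within which untreated replicate 4 was the highest and replicate 5 the lowest. The log2 difference from untreated cells was -0.10 at 1.5 h (95% interval -0.23 to 0.02), 0.11 at 7 days (-0.01 to 0.24) and -0.02 in KD cells (-0.15 to 0.10). With the lane as a term the value at 7 days was 0.42 (adjusted p = 0.0110), past the p threshold and short of the fold threshold. All 5 libraries at 7 days exceeded all 5 at 1.5 h, by 0.21 on the log2 scale (adjusted p = 0.00600). IRF3 overlaps BCL2L12 on the opposite strand, a gene that was called lower at 7 days (log2 fold change -0.76, adjusted p = 2.78e-06). The libraries were stranded, but the strand setting of the counting is not given in the sources used here.

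IRF7, the interferon-inducible partner of IRF3, was at or below 3 counts in every library. Untreated replicates 1 to 5 had 1, 0, 2, 2 and 3 reads. Across the other 15 libraries the counts ran from 0 to 2. It was therefore not tested, no fold is given, and the planned ratio of IRF7 to IRF3 was not computed. IRF4, a relative outside the 7 members with a role in lymphocytes, was also too low to test, with 0 to 6 reads in 19 libraries and 25 in untreated replicate 5.

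IRF5 was the member called higher at 7 days, from a low level. The untreated libraries had 1.31, 1.52, 1.08, 1.25 and 1.24 CPM, and those at 1.5 h 1.21 to 1.47 CPM. The libraries at 7 days had 1.90, 2.0, 1.79, 1.98 and 1.5 CPM. Of these, 4 lay above all untreated libraries, and replicate 5 at 7 days lay just below the highest untreated value. KD cells had 1.24, 1.03, 0.747, 1.06 and 0.992 CPM, mostly below the untreated values. The rise at 7 days was 0.52 on the log2 scale (SE 0.12, adjusted p = 0.00102). It was the 1 of 6 tested IRF genes called higher, beside 16.7% of all genes called higher and 14.4% called lower. Libraries at 7 days and untreated libraries did not overlap for 1 of the 6 (IRF9), against 44.8% of all genes. The call lay just past the fold threshold. It was lost without untreated replicate 3, 4 or 5 (0.456, 0.492 and 0.495) and without replicate 1, 2 or 4 at 7 days (0.496, 0.477 and 0.480), and with the lane as a term the value was 0.43 (adjusted p = 0.306).

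Against KD cells IRF5 at 7 days was higher by 0.86 (SE 0.13, adjusted p = 8.67e-06) with no overlap. In that comparison 1 of 6 tested IRF genes was called higher and 0 lower, beside 15.8% and 9.89% of all genes, and 5 of 6 did not overlap, beside 60.7%. Within lane 5, which holds 3 libraries at 7 days and 1 KD library, the IRF5 difference was 0.51, a value given without a test because 1 arm has a single library. With the lane as a term over all libraries it was 0.51 and not called (adjusted p = 0.0720). The profiles most similar to that of IRF5 over the 20 libraries belonged to LINC01164 (r = 0.898), GTF2H1, a subunit of the general factor TFIIH (r = 0.878), and OLFM1 (r = 0.876). Against untreated cells, 3 of the 6 tested leukocyte markers were called higher and 1 lower at 7 days, beside 16.7% and 14.4% of all genes. The sum over all 12 leukocyte markers was 108 to 120 CPM at 7 days and 157 to 306 CPM in untreated cells. Their part in the IRF5 difference was not tested.

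IRF8 was highest in the first phase. Untreated cells had 9.47, 8.27, 7.68, 8.63 and 7.04 CPM and cells at 1.5 h had 9.48, 10.3, 10.3, 10.0 and 10.8 CPM. Cells at 7 days had 6.76, 7.13, 8.25, 7.61 and 5.91 CPM. The first-phase libraries lay above all untreated libraries, although replicate 1 at 1.5 h and replicate 1 of untreated cells were nearly equal, while those at 7 days and in KD cells (6.37 to 8.25 CPM) overlapped the untreated ones. The difference at 1.5 h was 0.31 (SE 0.088, adjusted p = 0.0173), under the fold threshold, and 0.51 with the lane as a term (adjusted p = 0.0235), where it was called. From 1.5 h to 7 days IRF8 fell by 0.51 on the log2 scale (SE 0.089, adjusted p = 3.96e-05), and by 0.61 within lane 4. This call was lost without replicate 5 at 1.5 h (-0.495) or replicate 5 at 7 days (-0.457).

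IRF9, the DNA-binding subunit of ISGF3, ran the other way. Untreated cells had 21.2, 20.9, 20.6, 21.1 and 18.8 CPM, and cells at 1.5 h had 17.7, 17.4, 19.8, 18.8 and 17.1 CPM. At 7 days the level was 25.7, 26.6, 25.9, 26.3 and 25.0 CPM. All libraries at 7 days were above all those of the other groups, KD cells (20.3 to 23.8 CPM) included. The difference from untreated cells was 0.33 at 7 days (SE 0.053, adjusted p = 1.21e-05) and -0.18 at 1.5 h (SE 0.053, adjusted p = 0.0217), both short of the fold threshold. With the lane as a term they were 0.51 (adjusted p = 0.00265, called) and -0.04. From 1.5 h to 7 days IRF9 rose by 0.51 (SE 0.053, adjusted p = 3.64e-08), and by 0.53 within lane 4. That call was lost without replicate 1, 2 or 5 at 1.5 h (0.478, 0.475 and 0.487) and without replicate 1, 2, 3 or 4 at 7 days (0.493, 0.479, 0.490 and 0.483).

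Between the irradiated groups, 1 of 6 tested IRF genes was called higher at 7 days (IRF9) and 2 lower (IRF1 and IRF8), beside 16.8% and 12.6% of all genes. In 5 of the 6 the libraries of the 2 time points did not overlap, as was the case for 61.8% of all genes. IRF9 shares its strand with the overlapping gene AL136295.5, whose difference from untreated cells at 7 days was 0.29 (adjusted p = 0.00739), and reads in the shared bases cannot be assigned to either gene from the counts.

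The IRF9 promoter is printed beside that of IRF1 because IRF9 was the member that separated from every other group at 7 days. Capitals mark a GAS match at bases -63 to -55 of the RefSeq window (GRCh38.p14, chr14:24161015-24161314, plus strand), which held no κB or ISRE match.
IRF9: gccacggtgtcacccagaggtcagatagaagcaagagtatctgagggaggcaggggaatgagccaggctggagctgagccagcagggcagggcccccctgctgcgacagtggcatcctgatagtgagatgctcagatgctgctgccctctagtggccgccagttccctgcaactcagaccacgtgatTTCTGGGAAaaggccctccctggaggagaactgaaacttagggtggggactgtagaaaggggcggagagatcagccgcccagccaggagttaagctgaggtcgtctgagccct
The RefSeq windows searched for IRF5 and IRF8 held none of the 3 motifs. Those of IRF8 were chr16:85902580-85902879 and chr16:85902765-85903064, and the latter runs into its coding sequence. Other starts of these genes were not searched, so the result does not cover them.

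After knockdown of NFKBIA no IRF gene was called in the fit without lane, while with the lane as a term IRF2 was called lower (-0.74, adjusted p = 0.00577). In the fit without lane, of the 6 tested IRF genes 0 were called by edgeR's quasi-likelihood test and 0 by DESeq2, beside 5.18% of all genes called higher and 7.53% lower. For 0 of the 6 were KD and untreated libraries without overlap, against 24.1% of all genes. The split of these calls depended on scaling, with 40.8% of them higher after TMM normalisation and 51.2% with library size alone. By edgeR only IRF5 had an unadjusted p under 0.05 (log2 difference -0.33, 95% interval -0.60 to -0.07, adjusted p = 0.0638). The IRF5 difference with the lane as a term was -0.08 (adjusted p = 0.903). By the two-sided exact permutation test on single genes, unadjusted, IRF5 (p = 0.0159) and IRF1 (p = 0.0238) were both under 0.05. The IRF9 interval was -0.02 to 0.19 and the IRF8 interval -0.34 to 0.02. Between 1.5 h and KD cells IRF1 was called higher (1.37, adjusted p = 7.05e-15), 1 of 6 beside 7.6% of all genes, and 0 of 6 were called lower beside 6.54%. In that comparison 4 of 6 did not overlap, beside 43.6% of all genes.

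**Figure D2:**
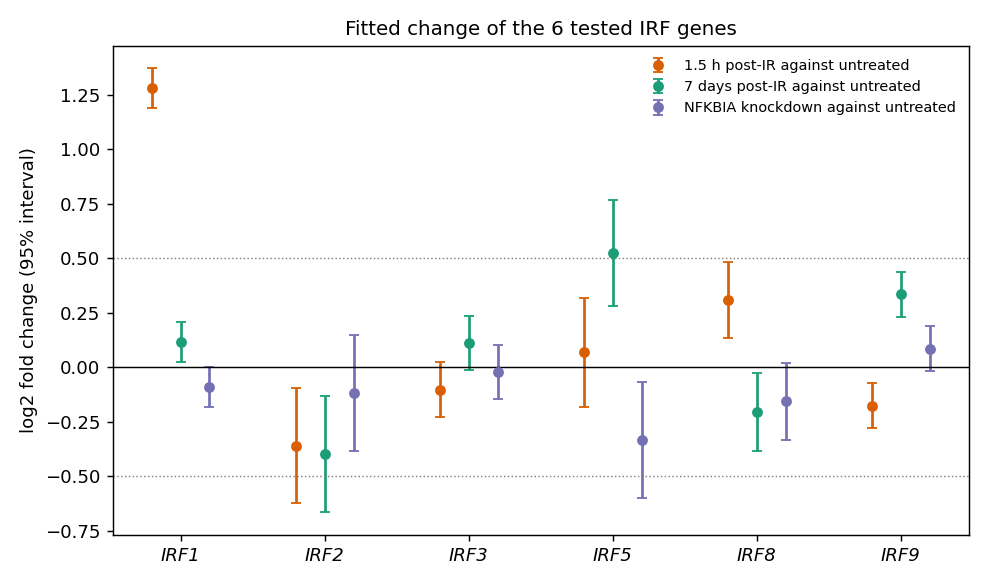
Fitted log2 fold change of the 6 tested IRF genes against untreated cells, with approximate 95% intervals derived from the edgeR fit (20 libraries, 5 per group), and dotted lines at the threshold of 0.5 in either direction. IRF1 at 1.5 h (1.28) stands clear of the line, IRF5 at 7 days (0.52) lies on it, and the other points are inside.

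Levels between genes were compared per kilobase of transcript (RPKM from the deposited gene width). IRF3 was first in every group, at 19.0 ± 2.3 RPKM in untreated cells. IRF8 at 1.59 ± 0.18, IRF5 at 0.292 ± 0.037 and IRF7 at 0.0219 ± 0.0204 RPKM followed in that order at the bottom of every group. The middle ranks were not settled. In untreated cells IRF2 (5.88 ± 2.02), IRF9 (5.41 ± 0.26) and IRF1 (3.98 ± 0.16) came in that order, but without untreated replicate 5 IRF9 (5.52 ± 0.08, n = 4) stood above IRF2 (4.99 ± 0.39). With the longest principal transcript as length IRF9 came first and IRF2 last of these 3. At 1.5 h IRF1 was second under both lengths, at 9.67 ± 0.47 RPKM by deposited width.

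STAT2, the partner of IRF9, rose at 7 days, from 98.3 ± 14 to 154 ± 2.8 CPM (log2 fold change 0.64, SE 0.072, adjusted p = 1.27e-07). Within libraries the IRF9 level was 0.211 ± 0.026 of the STAT2 level in untreated cells, 0.185 ± 0.008 at 1.5 h, 0.169 ± 0.005 at 7 days and 0.195 ± 0.017 in KD cells. On the log2 scale the ratio fell by 0.32 at 7 days (exact permutation p = 0.00794, adjusted 0.0159) with no overlap between groups, while the differences of -0.19 at 1.5 h and -0.11 in KD cells did not pass (adjusted exact permutation p = 0.0952 and 0.334). The former passed without untreated replicate 2 (-0.24, adjusted exact permutation p = 0.0238) or replicate 3 (-0.23, p = 0.0476).

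**Figure D3:**
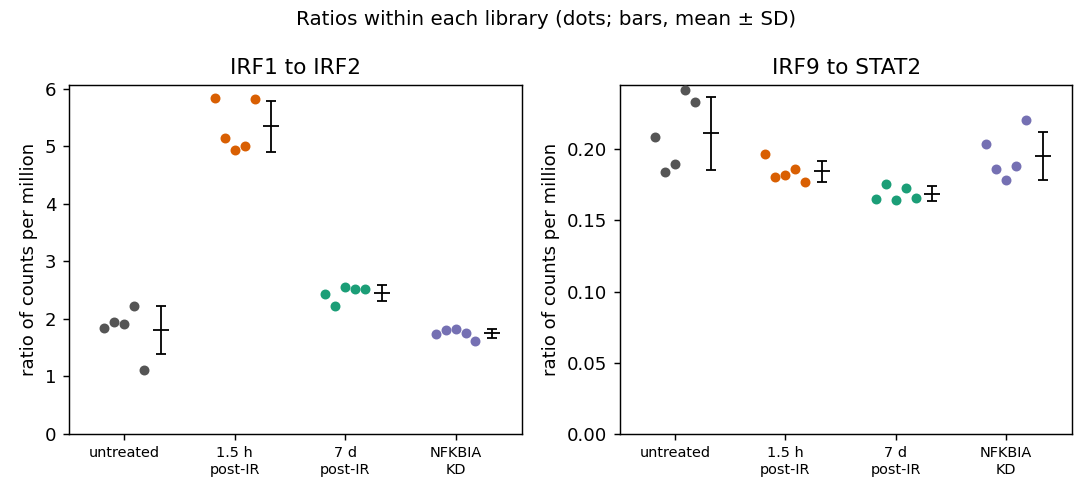
Ratio of IRF1 to IRF2 (left) and of IRF9 to STAT2 (right), each computed from CPM within a library, with the mean ± SD of 5 libraries as a bar. The IRF1 to IRF2 ratio ran from 4.94 to 5.83 at 1.5 h against 1.11 to 2.21 in untreated cells, and the IRF9 to STAT2 ratio at 7 days (0.164 to 0.176) lay below all untreated libraries (0.184 to 0.241).

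Ligands that lead to IRF activation, or result from it, were nearly silent. Of 21 interferon genes, 17 had 0 counts in all 20 libraries, IFNB1 among them, and 3 others never exceeded 3 counts. The exception was IFNE, an interferon known from epithelia of the reproductive tract. It had 6 to 14 counts in untreated libraries and 20 to 35 at 7 days, a rise of 1.80 on the log2 scale (SE 0.26, adjusted p = 4.76e-06). A count of 0 allows a level of up to 0.075 CPM in the deepest library and 0.143 CPM in the shallowest (3 reads on the TMM-scaled library size, counting error only).

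All 12 receptor and JAK-STAT genes were tested, and 0 were called at 1.5 h, beside 2.08% of all genes higher and 1.57% lower, or in KD cells, beside 5.18% and 7.53%. With the lane as a term, which rests for untreated cells on replicate 5, 1 was higher at 1.5 h and 1 lower in KD cells. The shares of all genes called higher and lower were then 11.9% and 13.6% at 1.5 h, 21.8% and 19.5% at 7 days, and 13.3% and 14% in KD cells. At 7 days 1 was higher and 1 lower, beside 16.7% and 14.4% of all genes. STAT2 rose and IFNLR1, the specific chain of the interferon-λ receptor, fell by 1.04 on the log2 scale (SE 0.090, adjusted p = 2.18e-09). Of 21 tested sensors, adaptors and kinases upstream of IRF3, IRF5 and IRF7, only CGAS, the cytosolic DNA sensor, was called at 1.5 h in the fit without lane, from 10.6 ± 0.9 to 17.0 ± 0.5 CPM (0.68, adjusted p = 1.19e-07). At 7 days 5 of the 21 were higher and 0 lower, so the count higher lay near the background. They included the RNA sensor gene RIGI (37.7 ± 1.7 to 86.8 ± 6.8 CPM, log2 fold change 1.20), STING1, the adaptor of cGAS (7.10 ± 0.58 to 16.0 ± 0.8 CPM, 1.17), and TLR3, the endosomal sensor of double-stranded RNA (4.61 ± 0.70 to 9.53 ± 0.53 CPM, 1.05). The other two, TLR4 and IFI16, are named after their values were seen. STING1 was the 1 gene of this list called in KD cells without the lane term, beside 5.18% of all genes called higher (12.9 ± 0.5 CPM, 0.86, adjusted p = 4.03e-09), where IRF3 itself differed by -0.02. TBK1, the kinase of IRF3, differed by 0.28 at 1.5 h, 0.28 at 7 days and 0.20 in KD cells, none past the fold threshold. The lane term gave 2 of the 21 higher and 3 lower at 1.5 h, 8 and 2 at 7 days, and 2 and 2 in KD cells.

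Of 15 regulators of IRF proteins and their pathway, 0 were called higher in any comparison with untreated cells in the fit without lane, beside 2.08% of all genes at 1.5 h, 16.7% at 7 days and 5.18% in KD cells. With the lane as a term 2 were higher at 1.5 h, 1 at 7 days and 2 in KD cells. SOCS3 and SOCS1, feedback inhibitors of JAK-STAT signalling, fell by 0.58 and 0.56 on the log2 scale at 1.5 h (adjusted p = 9.04e-06 and 0.0145), 2 of 15 beside 1.57% of all genes called lower. With the lane as a term 1 of 15 was lower at 1.5 h, beside 13.6% of all genes. At 7 days 5 of 15 were lower, beside 14.4% of all genes. SOCS1 went from 3.05 ± 0.72 to 0.565 ± 0.046 CPM (-2.41), SOCS3 from 72.3 ± 9.9 to 28.0 ± 1.8 CPM (-1.37), and IRF2BP1, an IRF2-binding corepressor, from 33.5 ± 3.1 to 20.5 ± 1.2 CPM (-0.71). IRF2BPL and PIAS1 were the others, named after their values were seen. Without untreated replicate 5 the number lower at 7 days was 4. In KD cells 0 of 15 were called lower, beside 7.53% of all genes, and 1 with the lane as a term.

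Targets of ISGF3 called higher were found at 7 days and in KD cells. At 1.5 h 0 of 40 tested were called higher and 1 lower (IFITM3, -0.58, adjusted p = 0.0318, and not called without untreated replicate 5), with a median log2 fold change of -0.02 beside -0.03 over all genes, of which 2.08% were called higher and 1.57% lower. At 7 days 18 of 40 were higher and 2 lower, beside 16.7% and 14.4% of all genes, with a median of 0.36 beside 0.01. RSAD2 had 0 to 4 counts in untreated libraries and 28 to 50 at 7 days, and OAS2 had 0 to 12 and 47 to 82, counts at which the fitted log2 fold changes of 4.40 and 3.51 depend on the prior count. OAS1, a 2′-5′-oligoadenylate synthetase, went from 0.752 ± 0.256 to 4.04 ± 0.27 CPM (2.47, adjusted p = 1.49e-10). In KD cells 12 of 40 were higher and 0 lower, beside 5.18% and 7.53% of all genes, with a median of 0.25 beside -0.01 over all genes. They were led by IFI44 (1.47, adjusted p = 3.72e-08), SAMD9L (1.33, adjusted p = 4.03e-09) and BST2, the virion-tethering protein tetherin (1.23, adjusted p = 1.15e-05). Fitting the lane gave 3 of 40 higher and 5 lower at 1.5 h, 18 and 4 at 7 days, and 9 and 3 in KD cells, beside 11.9% and 13.6%, 21.8% and 19.5%, and 13.3% and 14% of all genes. The medians were then -0.06, 0.52 and 0.21. Without untreated replicate 5 the number lower at 7 days was 1.

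Targets assigned to IRF1 were called in all 3 comparisons with untreated cells. At 1.5 h, when IRF1 mRNA was 2.43-fold up, 6 of 28 tested were higher and 0 lower, beside 2.08% and 1.57% of all genes, with a median of 0.03 beside -0.03. The 3 with the largest rise were IL12A (3 to 12 counts in untreated libraries and 38 to 66 at 1.5 h, log2 fold change 2.25), CDKN1A, which encodes p21 (225 ± 17 to 690 ± 24 CPM, 1.61), and BBC3, which encodes PUMA (32.1 ± 5.2 to 91.7 ± 7.3 CPM, 1.51). CDKN1A and BBC3 are also known targets of p53. GBP2, a guanylate-binding protein, differed by -0.03 at 1.5 h (adjusted p = 0.871). At 7 days, with an IRF1 difference of 0.12, 13 of 28 were higher and 2 lower, beside 16.7% and 14.4% of all genes, with a median of 0.41 beside 0.01. TNFSF10, which encodes TRAIL, had 2 to 6 counts in untreated libraries and 25 to 57 at 7 days (2.97, adjusted p = 1.92e-08), and CASP1 rose from 0.516 ± 0.135 to 3.68 ± 0.87 CPM (2.81, adjusted p = 1.80e-09). In KD cells, with an IRF1 difference of -0.09, 7 of 28 were higher and 1 lower, beside 5.18% and 7.53% of all genes, with a median of 0.13 beside -0.01. GBP2 went from 6.02 ± 0.73 to 15.3 ± 1.6 CPM (1.35, adjusted p = 1.07e-09), IL15RA by 1.33 (adjusted p = 1.21e-05) and CASP1 by 1.27 (adjusted p = 9.08e-04). In the fit with the lane term the counts higher and lower were 7 and 1 at 1.5 h, 13 and 3 at 7 days, and 7 and 1 in KD cells, beside the shares of all genes given for that fit. The medians were 0.27 beside 0.04 over all genes at 1.5 h, 0.60 beside 0.07 at 7 days and 0.37 beside 0.03 in KD cells. Without untreated replicate 5 the median in KD cells was 0.08 beside -0.02, with 2 lower. These 3 comparisons share the untreated libraries, and the lists share targets with other pathways.

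**Figure D4:**
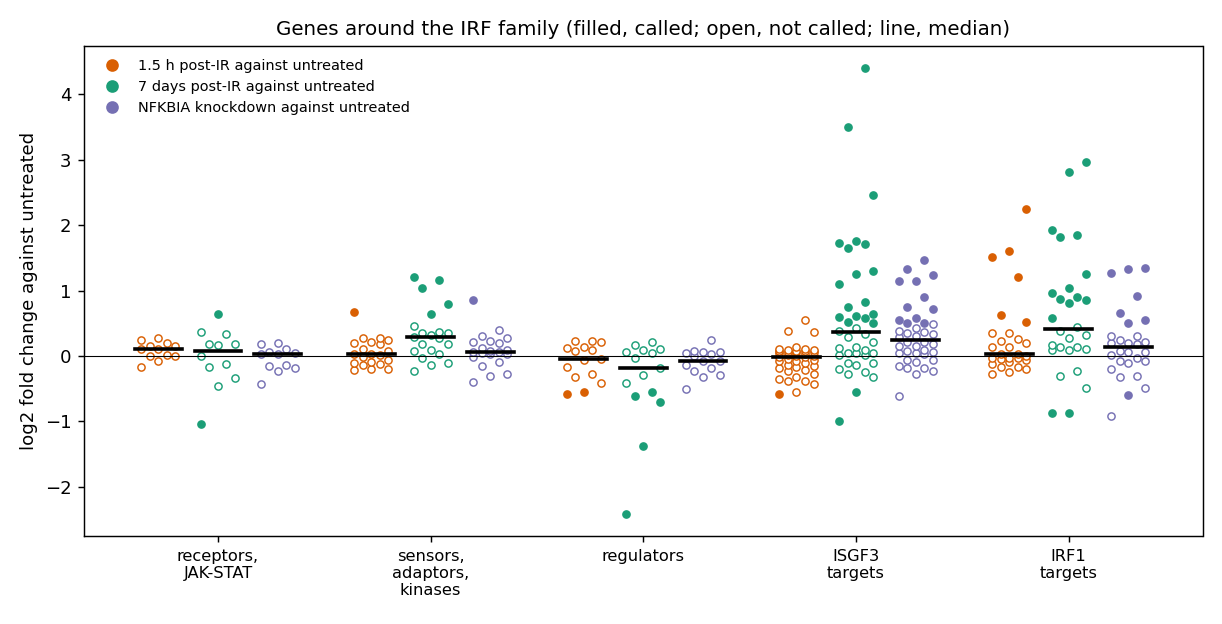
Log2 fold change against untreated cells of each tested gene in 5 lists, by comparison, with called genes filled, the others open, and the list median as a black line. At 1.5 h the ISGF3 targets lie around 0 (median -0.02), while at 7 days and in KD cells they spread upward (medians 0.36 and 0.25), and the regulators hold no filled point above 0.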

How the data were processed

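RNA was sequenced as stranded mRNA libraries (single-end), and the authors deposited raw read counts per gene for 20 libraries, with gene widths. The submitters' processing notes name bcl2fastq, Trimmomatic, STAR 2.4.2a and hg19. The counter, annotation and strand setting are not given in the sources used here. Genes were filtered with filterByExpr (minimum count 10), which left 14992 of 20314. They were TMM-normalised and fitted in 1 edgeR 4.0.16 quasi-likelihood model over all 4 groups without covariate (R 4.3.3). A call needed an absolute log2 fold change above 0.5 and a Benjamini-Hochberg adjusted p under 0.05, over all genes tested. Each SE was the absolute log2 fold change divided by the square root of the edgeR F statistic. The 95% intervals used this SE with a normal approximation, without allowance for finite degrees of freedom. CPM used TMM library sizes. Correlations and ratios used log2 CPM with a prior count of 2, and ratios were compared with two-sided exact permutation tests. The fit was tested on simulated data. No 2 libraries of a group agreed within sampling noise (lowest chi-square per degree of freedom 1.74 over 40 pairs). The members and gene lists were chosen with earlier results of these data known. Some genes covered by the naming rule are not reported here. Named genes were the 7 members, IRF4, STAT2, NFKBIA, the 3 largest called changes per list and comparison with untreated cells, any interferon passing the filter, and the 3 profiles most similar to each member called against untreated cells. TBK1, C5orf56, BCL2L12 and AL136295.5 were added afterwards, the last 3 as genes that GENCODE 29 places over a member. SP7, IBSP, TWIST1, IFNB1, TLR4, IFI16, IRF2BPL and PIAS1 were also named outside this rule. Deposited widths equal the GENCODE 29 exon unions for the 7 members. Promoters came from RefSeq windows, and those of IRF2, IRF3 and IRF7 were not used. Alternatives were RLE and library-size scaling, other filters, DESeq2 1.42.0, Bonferroni adjustment, no fold threshold, the compared groups alone, lane, replicate block and each library left out. Figures used matplotlib.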

Additional observations from a re-analysis of the deposited data

Results flagged for a closer look

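Among 24 sets of 5 libraries (6 IRF genes in 4 groups), 2 held a library far from the other 4 by Dixon's criterion, where chance flags about 1 in 20. Both were untreated replicate 5. IRF2 stood at 29.4 CPM there against 14.2 to 17.1 CPM in the other untreated libraries, a gap of 0.806 of the group's range. IRF9 stood at 18.8 CPM against 20.6 to 21.2 CPM, a gap of 0.728 of the range. The same library was the shallowest, with 22535659 reads, and the untreated library in lane 3. Without it IRF9 differed from untreated cells by 0.29 at 7 days (adjusted p = 2.90e-05) and by -0.21 at 1.5 h (adjusted p = 0.00287).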

How the results depend on the processing

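The rise of IRF1 at 1.5 h was called under every alternative that gave a test, between 1.18 and 1.31 on the log2 scale, as was its fall from 1.5 h to 7 days. The calls of IRF5 against untreated cells and of IRF8 and IRF9 between the time points lay at the fold threshold, while IRF5 at 7 days against KD cells stayed between 0.74 and 0.93 with each library left out, and depth limits IRF5, near 1 CPM, and IRF7. Without the filter on low counts the number of IRF genes called higher at 7 days went from 1 to 0 against untreated cells and from 1 to 0 against 1.5 h (IRF5 0.49, IRF9 0.48), and 1 was called lower, which was IRF7 at no more than 3 counts. With library size alone IRF8 from 1.5 h to 7 days was -0.49, leaving 1 IRF gene called lower, and IRF3 in KD cells turned to 0.035. Bonferroni adjustment left 0 IRF genes higher at 7 days and 1 lower from 1.5 h to 7 days. It left 199 genes higher and 57 lower at 1.5 h, 1396 lower at 7 days, 355 higher and 544 lower in KD cells, 914 lower at 7 days against KD cells, and 644 higher and 452 lower at 1.5 h against KD cells. Fitting the compared groups alone left 94 genes lower at 1.5 h, against 236.

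Without a fold threshold 1657 genes were higher and 1534 lower at 1.5 h, 4935 and 4685 at 7 days, 2921 and 3157 in KD cells, 4799 and 4332 at 7 days against 1.5 h, 4456 and 4153 at 7 days against KD cells, and 3183 and 3062 at 1.5 h against KD cells. IRF genes higher and lower were then 2 and 1 at 1.5 h, 3 and 1 at 7 days, 3 and 2 at 7 days against 1.5 h, 3 and 0 at 7 days against KD cells, and 3 and 1 at 1.5 h against KD cells.

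With lane as a term 1781 genes were higher and 2039 lower at 1.5 h, 1994 and 2094 in KD cells, and 659 and 527 at 1.5 h against KD cells. It gave 2 IRF genes higher and 1 lower at 1.5 h, 1 lower at 7 days, 1 lower in KD cells, and 0 higher at 7 days against KD cells. IRF3 turned to 0.17 at 1.5 h and 0.26 in KD cells, IRF1 at 7 days to -0.063, and IRF8 at 7 days against KD cells to 0.016. Within lanes 3 and 5 no calls were counted, because 1 arm there is a single library, in lane 3 untreated replicate 5. In the 5 gene lists the lane term, chosen after seeing the data, gave at 1.5 h 1 receptor gene higher, 2 sensor genes higher and 3 lower, 2 regulators higher and 1 lower, 3 ISGF3 targets higher and 5 lower, and 1 IRF1 target lower. At 7 days it gave 8 sensor genes higher and 2 lower, 1 regulator higher and 4 ISGF3 targets lower. In KD cells it gave 1 receptor gene lower, 2 sensor genes higher and 2 lower, 2 regulators higher and 1 lower, and 3 ISGF3 targets lower. The cause was not tested.

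Leaving out 1 library at a time gave 157 to 343 genes lower at 1.5 h. IRF genes called higher ranged from 0 to 1 at 7 days, from 0 to 2 at 7 days against 1.5 h and from 1 to 2 at 1.5 h against KD cells, and those called lower from 0 to 1 at 7 days and from 1 to 2 at 7 days against 1.5 h. In KD cells IRF2 ran from -0.22 to 0.086 and IRF3 from -0.094 to 0.022, and IRF8 at 7 days against KD cells from -0.12 to 0.0070. The log2 ratio of IRF1 to IRF2 in KD cells ran from -0.18 to 0.070 and that of IRF9 to STAT2 at 1.5 h from -0.24 to -0.14. Without untreated replicate 5, a choice made after seeing the data, 0 ISGF3 targets were lower at 1.5 h, 1 was lower at 7 days and 2 IRF1 targets were lower in KD cells. Libraries that shared only a number were not paired, since same-numbered libraries correlated between -0.25 and 0.12 and at most 1 of 5 pairs per comparison exceeded 0.1. With the replicate number as a block IRF1 at 1.5 h was 1.28 and no IRF call changed.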
